A study of Homo sapiens with 5 samples.

Results

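Peaks in first introns are the places in this series where sequenced DNA piled up inside the first intron of an annotated transcript, outside promoters. They were taken from 4 deposited peak lists as every row annotated to an intron numbered 1 of its transcript, and rows with the same chromosome, start and end in a list were counted as 1 interval. This gave 6748 first-intron intervals among 24051 intronic intervals and 63391 intervals in all, or 10.6% of all. They comprise 1174 intervals of the FOXM1 list, 734 of the LC3 list, 1680 of the list of vesicle DNA from starved cells and 3160 of the list of vesicle DNA from control cells.

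All samples came from A549, an established epithelial line from a human lung adenocarcinoma, with no genetic change named in the labels. The FOXM1 and LC3 samples were chromatin immunoprecipitations (ChIP) with an antibody against the transcription factor FOXM1 or the autophagy protein LC3, from otherwise untreated cells grown in DMEM with 10% fetal bovine serum. The other two samples, called evDNA, were DNA of extracellular vesicles, without an antibody, from cells kept for 3 days in EBSS, a balanced salt solution without amino acids or serum, and from untreated control cells; for evDNA the labels give DMEM without serum. The labels give 1 fixation and library protocol for all samples, with 1% formaldehyde for 10 minutes and 50 bp single-end or 150 bp paired-end reads. Each group is 1 library, so no difference between groups has a replicate check. Intervals printed beside shares below are 95% intervals that cover counting error only, and intervals in the same gene are not independent. A labelled input library was not analysed here. Peak lists of DNA hold no expression, so the labelled cell type was not checked against markers.

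A first intron follows the first exon of a transcript and is often its longest. First introns are known to be rich in enhancers, in open chromatin close to the promoter and in binding sites of transcription factors. FOXM1 is a forkhead factor that drives genes of mitosis, acting largely at promoters through partner proteins, and LC3 is a family of ubiquitin-like proteins attached to autophagosome membranes and to some vesicle cargo. The lists name a promoter before any intron, so every first-intron interval lies more than 3 kb from an annotated transcription start site (TSS): the nearest lay at 3.01 kb in FOXM1, 3.01 kb in LC3, 3.00 kb in EBSS evDNA and 3.00 kb in control evDNA.

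Sequence from RefSeq on GRCh38.p14, the assembly also named hg38, could be placed inside 1 first-intron interval. This is the interval chr15:91469825-91470086 of EBSS evDNA, in the first intron of the noncoding RNA gene CRAT37, which meets the RefSeq start window of the noncoding locus LOC107984778. It is shown because it is the only first-intron interval for which sequence was at hand. Its peak had 7 fragments at the summit, a fold over local background of 2.63 and a −log10 q of 0.261, and it lay 6.49 kb from the nearest TSS of the lists' annotation. The stretch inside the window, chr15:91469825-91469955 on the minus strand, holds 131 bases with 49.6% G and C and 2 CpG sites, given in capitals.

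CRAT37 interval: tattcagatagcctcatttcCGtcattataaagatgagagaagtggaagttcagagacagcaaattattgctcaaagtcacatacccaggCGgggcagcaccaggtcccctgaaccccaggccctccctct

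Host genes of first-intron intervals ranged from CpG-dense to CpG-free promoters. Among 50 protein-coding genes with a first-intron interval in all 4 lists, 41 had a promoter sequence used here, which runs from 250 bases before to 50 bases after the gene's start. Their G and C content ranged from 34.7% to 83.0% with a median of 61.7%. The extremes by CpG number were EFNA5, an ephrin ligand of Eph receptors, with 47 CpG sites, and VRK2, a serine/threonine kinase, with 0. Both are shown to let the range be seen, with CpG sites in capitals. EFNA5 is at chr5:107670888-107671187 on the minus strand and VRK2 at chr2:57907342-57907641 on the plus strand.

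EFNA5 promoter: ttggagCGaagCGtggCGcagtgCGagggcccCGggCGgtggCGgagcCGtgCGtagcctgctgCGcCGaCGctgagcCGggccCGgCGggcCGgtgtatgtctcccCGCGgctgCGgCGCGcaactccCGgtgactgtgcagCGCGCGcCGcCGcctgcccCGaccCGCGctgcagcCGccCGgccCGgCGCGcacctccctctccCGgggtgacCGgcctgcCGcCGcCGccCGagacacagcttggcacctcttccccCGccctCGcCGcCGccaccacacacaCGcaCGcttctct
VRK2 promoter: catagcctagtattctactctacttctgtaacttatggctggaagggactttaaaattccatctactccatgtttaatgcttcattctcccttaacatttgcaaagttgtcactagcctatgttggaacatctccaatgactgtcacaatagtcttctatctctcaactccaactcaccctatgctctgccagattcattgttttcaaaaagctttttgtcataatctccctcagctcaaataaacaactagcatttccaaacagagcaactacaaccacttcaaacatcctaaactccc

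EFNA5 held 1 first-intron interval in FOXM1, 1 in LC3, 2 in EBSS evDNA and 4 in control evDNA, and VRK2 held 1 in FOXM1, 1 in LC3, 3 in EBSS evDNA and 2 in control evDNA. Over all hosts, promoter G and C content had a median of 63.7% for FOXM1 hosts, 65.7% for EBSS evDNA hosts and 65.7% for control evDNA hosts, against 62.7% for all 15842 protein-coding genes with a promoter sequence. CpG-rich promoters (at least 55% G and C, with a ratio of observed to expected CpG of at least 0.65) made up 57.4% (52.2% to 62.4%) of FOXM1 hosts, 64.2% (60.4% to 67.9%) of EBSS evDNA hosts and 63.2% (59.96% to 66.4%) of control evDNA hosts, against 57.2% (56.4% to 57.9%) of all. Hosts with later-intron intervals but no first-intron interval gave 63.1% (59.5% to 66.5%) in FOXM1 and 65.2% (62.4% to 67.9%) in EBSS evDNA. In control evDNA it was 64.5% (62.0% to 66.9%), so the values above all genes were not particular to first-intron hosts. The forkhead motif TGTTTAC, read on both strands, was in the promoter of 2.63% of FOXM1, 2.64% of EBSS evDNA and 2.34% of control evDNA first-intron hosts and of 2.61% of all genes. The motif TTTGAA, the core of the cell cycle element CHR that FOXM1's partner complex binds, was in 15.3% (11.8% to 19.3%) of FOXM1 hosts, 11.8% of EBSS evDNA hosts and 11.1% of control evDNA hosts, and in 12.1% (11.6% to 12.7%) of all. A promoter sequence was at hand for 80% of FOXM1 hosts and for 78.2% of LC3 hosts. At least 80% was asked for, so the check is void for LC3 hosts. The promoters lie outside the first-intron intervals, apart from the CRAT37 case.

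LC3 had the highest share of its intronic intervals in first introns. First introns held 26.7% (25.4% to 28.0%) of FOXM1 intronic intervals, 32.3% (30.4% to 34.3%) of LC3 ones, 28.7% (27.5% to 29.9%) of EBSS evDNA ones and 27.4% (26.6% to 28.2%) of control evDNA ones. Of all intervals of a list, first-intron ones were 10.5% in FOXM1, 9.41% in LC3, 10.9% in EBSS evDNA and 10.9% in control evDNA. LC3 thus had the highest first-intron share among intronic intervals but the lowest among all intervals. The order turned among peaks with q, the authors' false discovery rate, at most 0.05, where few were left: first introns then held 10 of 30 intronic intervals in FOXM1 (33.3%, 17.3% to 52.8%), 6 of 30 in LC3 (20%, 7.71% to 38.6%), 28.0% in EBSS evDNA and 26.5% in control evDNA.

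FOXM1 differed from LC3 by -5.70 percentage points (-8.04 to -3.39), from EBSS evDNA by -2.05 points (-3.79 to -0.295) and from control evDNA by -0.772 points (-2.30 to 0.780). LC3 was 3.65 points (1.42 to 5.91) above EBSS evDNA and 4.93 points (2.86 to 7.04) above control evDNA. EBSS evDNA was 1.27 points (-0.134 to 2.70) above control evDNA, a difference whose counting interval includes 0. When each host gene was counted once as a first-intron host and once as a later-intron host, the share was 31.7% in FOXM1, 35.5% in LC3, 34.1% in EBSS evDNA and 34.1% in control evDNA. Counted so, LC3 was 1.45 points (-1.27 to 4.21) above EBSS evDNA and 1.46 points (-1.13 to 4.10) above control evDNA, intervals that include 0. With all lists at the length of the shortest, 7801 intervals, FOXM1 differed from EBSS evDNA by -0.933 points (-3.22 to 1.35), which also includes 0.

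**Figure D1:**
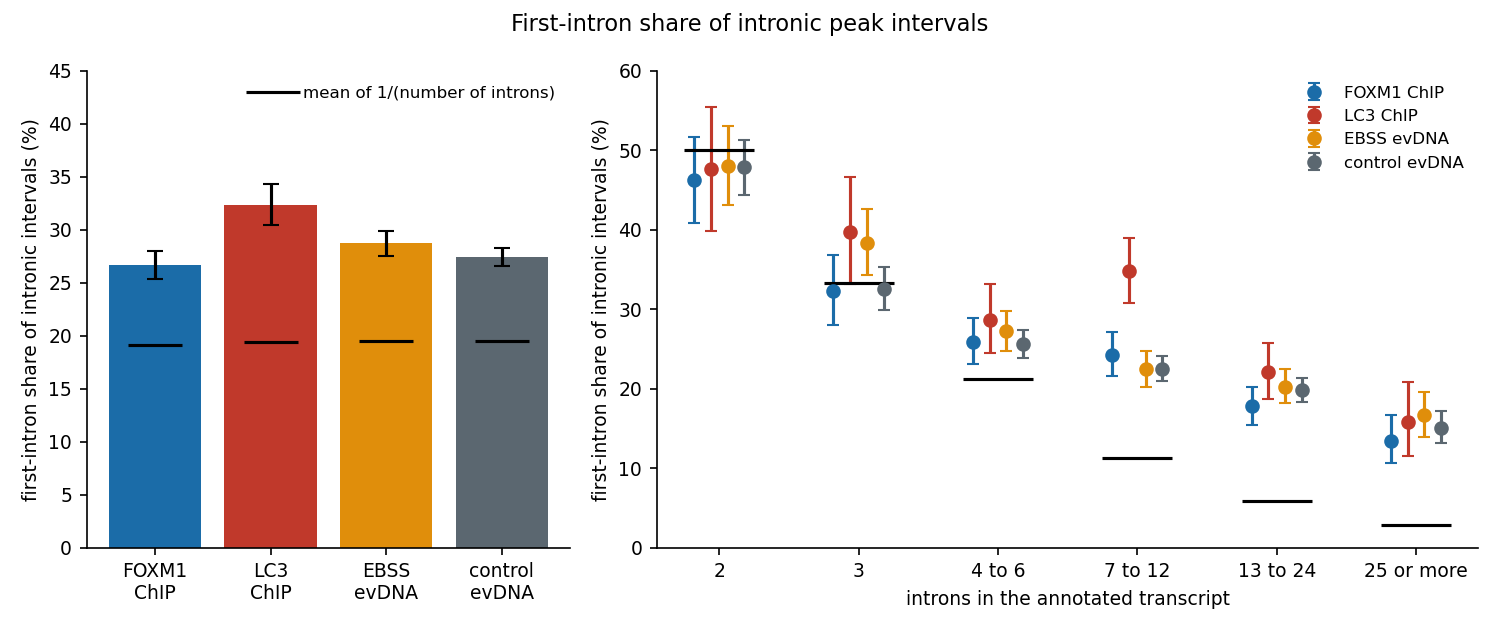
Left, bars give the share of intronic intervals in first introns in each list with 95% counting intervals, and black marks the mean of 1 over the number of introns. Right, the same share by the number of introns of the annotated transcript: all lists lie near the black mark at 2 introns and above it from 4 introns on, and LC3 stands above the other lists at 7 to 12 introns, with 34.8%.

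First introns held more intervals than their number alone would give. If each intron of a transcript held as many intervals as any other, first introns would hold 19.1% of FOXM1, 19.4% of LC3, 19.5% of EBSS evDNA and 19.5% of control evDNA intronic intervals, the mean of 1 over the number of introns. The measured shares were 1.40 times these values in FOXM1, 1.67 in LC3, 1.47 in EBSS evDNA and 1.41 in control evDNA. Intron lengths were not used here, so the part of intron length in this was not tested.

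The ratio grew with the number of introns. In transcripts of 2 introns the first held 46.2% of FOXM1, 47.6% of LC3, 48.0% of EBSS evDNA and 47.8% of control evDNA intervals, or 0.924 to 0.960 times an equal share. In transcripts of 25 or more introns the first held 13.5% in FOXM1, 15.8% in LC3, 16.6% in EBSS evDNA and 15.1% in control evDNA, which were 4.77 times an equal share in FOXM1, 5.42 in LC3, 5.79 in EBSS evDNA and 5.26 in control evDNA. LC3 stood apart at 7 to 12 introns, with 34.8% (30.7% to 38.9%), beside 24.2% (21.6% to 27.1%) in FOXM1, 22.5% (20.3% to 24.8%) in EBSS evDNA and 22.5% (20.9% to 24.1%) in control evDNA. Of LC3's 4 leading hosts, RORA with 10 introns, ASIC2 with 9 and ADARB2 with 9 fall in that class, and DLGAP2 with 14 does not.

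With all transcripts pooled, intervals became fewer from each intron to the next at the 5' end. Transcripts with few introns have no later ones, so pooling by itself lowers the later shares. In transcripts of 2 introns the first held 46.2% to 48.0%, with counting intervals that include 50% in every list. A decline along single transcripts was thus not seen there, and it was not tested in longer ones. Second introns held 21.1% of FOXM1, 20.3% of LC3, 20.3% of EBSS evDNA and 21.4% of control evDNA intronic intervals, and the third 13.6% in FOXM1, 11.9% in LC3, 12.6% in EBSS evDNA and 13.7% in control evDNA. LC3's higher value was thus at the first intron and not at the second. Last introns of transcripts with several held 13.2% in FOXM1, 12.3% in LC3, 13.1% in EBSS evDNA and 12.97% in control evDNA. Transcripts with a single intron, whose first intron is also their last, gave 11.7% of first-intron intervals in FOXM1, 12.5% in LC3, 14.3% in EBSS evDNA and 13.4% in control evDNA.

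First-intron intervals lay closer to a TSS than later-intron intervals in every list. Their median distance to the nearest TSS of any gene was 17.9 kb in FOXM1, 14.2 kb in LC3, 13.2 kb in EBSS evDNA and 14.6 kb in control evDNA. For later introns it was 23.5 kb in FOXM1, 18.7 kb in LC3, 17.7 kb in EBSS evDNA and 18.3 kb in control evDNA. A first intron is by definition the intron nearest its transcript's start, so this order is in part given by the definition. The middle 50% of first-intron intervals lay between 8.21 and 37.9 kb in FOXM1, 7.04 and 30.1 kb in LC3, 6.75 and 26.5 kb in EBSS evDNA, and 7.48 and 30.3 kb in control evDNA. The median and both quartiles were highest in FOXM1, and its later-intron median was highest too. Its farthest first-intron interval, at 194 kb, was nearer than those of LC3 (199.8 kb), EBSS evDNA (245 kb) and control evDNA (252 kb). Among the 10 FOXM1 intervals with q of at most 0.05 the median was 7.52 kb, the lowest of the lists.

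The first-intron share declined with distance in all 4 lists, an order that the definition of a first intron likewise gives in part. Between 3 and 5 kb from a TSS, first introns held 36.3% (31.5% to 41.3%) of FOXM1, 45.5% (39.4% to 51.7%) of LC3, 35.5% (31.9% to 39.2%) of EBSS evDNA and 32.5% (29.8% to 35.2%) of control evDNA intronic intervals. Over 100 kb away they held 14.7% in FOXM1, 14.1% in LC3, 13.8% in EBSS evDNA and 13.9% in control evDNA, where the lists differed by less than their counting error. LC3 was highest in the bin next to promoters, and 16.5% of its first-intron intervals lay there, beside 11.9% in FOXM1, 14.5% in EBSS evDNA and 12.03% in control evDNA.

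**Figure D2:**
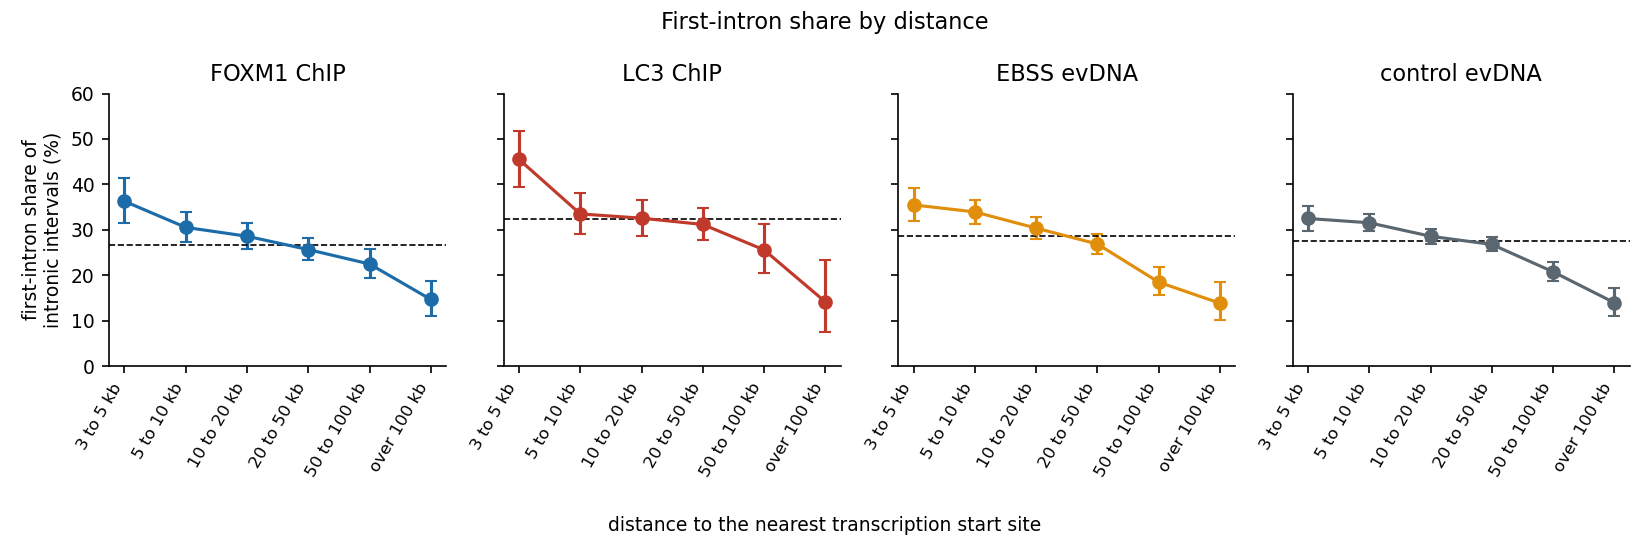
Share of intronic intervals in first introns (y axis, percent, with 95% counting intervals) by distance to the nearest TSS (x axis), 1 panel per list, with the list's share over all distances dashed. The share falls with distance in every panel, and LC3 has the highest point, 45.5% at 3 to 5 kb.

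The nearest TSS was often not that of the host. The gene whose intron held the interval also held the nearest TSS for 61.0% of first-intron intervals in FOXM1, 66.9% in LC3, 62.2% in EBSS evDNA and 60.03% in control evDNA. For later introns this share was 51.8% in FOXM1, 55.3% in LC3, 57.7% in EBSS evDNA and 56.1% in control evDNA. First-intron intervals lay downstream of the nearest TSS in 64.0% of cases in FOXM1, 61.9% in LC3, 62.6% in EBSS evDNA and 61.7% in control evDNA, and later-intron ones in 54.1% in FOXM1, 53.2% in LC3, 55.5% in EBSS evDNA and 53.9% in control evDNA. The start and end of the annotated transcript could be read from the lists for 621 first-intron intervals in FOXM1, 397 in LC3, 821 in EBSS evDNA and 1678 in control evDNA. In these the median distance to the transcript's own start was 39.8 kb in FOXM1, 28.0 kb in LC3, 27.7 kb in EBSS evDNA and 35.2 kb in control evDNA, at 24.3% of the transcript's length in FOXM1, 25.1% in LC3, 24.9% in EBSS evDNA and 25.4% in control evDNA. Later-intron intervals with a readable transcript had own-start medians of 160 kb in FOXM1 and 124 kb in LC3. They had 114 kb in EBSS evDNA and 119 kb in control evDNA. These medians cover the intervals whose transcript could be read. The differences between first and later introns in this paragraph are also in part given by the definition. The numbering followed the strand: on both strands first-intron intervals lay in the first 28.4% of the transcript at the median, and last-intron ones at 73.4% or beyond.

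Most first-intron peaks were weak calls. With q at most 0.05, 10 of 1174 first-intron intervals remained in FOXM1 (0.852%, 0.409% to 1.56%), 6 of 734 in LC3 (0.817%, 0.301% to 1.77%), 94 of 1680 in EBSS evDNA (5.60%, 4.54% to 6.80%) and 335 of 3160 in control evDNA (10.6%, 9.55% to 11.7%). Over all intervals the background share past this threshold was 1.97% in FOXM1, 3.78% in LC3, 9.77% in EBSS evDNA and 13.3% in control evDNA. First-intron intervals were below the background in every list, and later-intron ones were too, with 0.619% in FOXM1, 1.56% in LC3, 5.80% in EBSS evDNA and 11.1% in control evDNA. First minus later introns gave 0.233 points (-0.280 to 0.975) in FOXM1, -0.746 (-1.62 to 0.336) in LC3, -0.203 (-1.45 to 1.17) in EBSS evDNA and -0.495 (-1.73 to 0.804) in control evDNA, each interval including 0.

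The median first-intron interval had 5 fragments at its summit in FOXM1 and 8 in each of LC3, EBSS evDNA and control evDNA, over local backgrounds of 1.08 fragments in FOXM1, 1.96 in LC3, 2.07 in EBSS evDNA and 2.04 in control evDNA. Its median fold was 2.89 in FOXM1, 2.97 in LC3, 2.79 in EBSS evDNA and 2.79 in control evDNA. At such depth an interval rests on a handful of fragments, and its presence in a list and absence from another is not shown to be a difference in occupancy. The number of fragments per library is not known.

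The highest evDNA folds in first introns were in hosts that could not be matched to a named protein-coding gene. An interval on chromosome 13, with 2.57-fold, 179 fragments and a background of 68.9 fragments in FOXM1 (18211780 to 18212365), had 17.1-fold with 193 fragments in EBSS evDNA and 17.99-fold with 223 fragments in control evDNA. Its host gene has no name in the files, and no LC3 interval was there. A second place, in the first intron of AL592295.3 on chromosome 1, gave LC3 its highest first-intron fold, 5.31 with 13 fragments (161452634 to 161452956). Nearby intervals of the same intron had folds of 11.2 and 5.59 in EBSS evDNA and 13.6 and 9.05 in control evDNA. On chromosome 2 a host without a name had 6.45-fold with 35 fragments in EBSS evDNA (109199326 to 109199700). Hosts without a name can be coding genes. Backgrounds of 10 or more fragments occurred at 1 first-intron interval in FOXM1, 0 in LC3, 1 in EBSS evDNA and 1 in control evDNA.

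Named protein-coding hosts held 60.4% of FOXM1, 69.2% of LC3, 60.6% of EBSS evDNA and 60.3% of control evDNA first-intron intervals. For later introns the shares were 66.8% in FOXM1, 67.7% in LC3, 69.1% in EBSS evDNA and 67.5% in control evDNA. First minus later introns was -6.40 points (-9.65 to -3.19) in FOXM1, 1.52 (-2.61 to 5.54) in LC3, -8.55 (-11.3 to -5.84) in EBSS evDNA and -7.21 (-9.19 to -5.24) in control evDNA. LC3 was the list without a lower coding share in first introns. The other first-intron intervals lay in noncoding RNA genes, pseudogenes, genes that the files do not name, or genes such as MPP6 whose name matched no single coding gene. The coding shares and host counts can thus miss some coding hosts.

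First-intron hosts were long genes, and so were later-intron hosts. Protein-coding hosts numbered 475 in FOXM1, 395 in LC3, 790 in EBSS evDNA and 1105 in control evDNA, which is 2.37% of 20052 protein-coding genes in FOXM1, 1.97% in LC3, 3.94% in EBSS evDNA and 5.51% in control evDNA. Their median length was 225 kb in FOXM1, 183 kb in LC3, 170 kb in EBSS evDNA and 150 kb in control evDNA, beside 24.1 kb for all protein-coding genes. Of the 69 genes longer than 1000 kb, 53.6% (41.2% to 65.7%) hosted a FOXM1 interval, 27.5% (17.5% to 39.6%) an LC3 interval, 43.5% (31.6% to 56.0%) an EBSS evDNA interval and 59.4% (46.9% to 71.1%) a control evDNA interval. Of the 13783 genes of up to 50 kb, 0.392% in FOXM1, 0.421% in LC3, 0.718% in EBSS evDNA and 1.07% in control evDNA did. LC3, with the lowest share of the longest genes, had a share of the shortest genes within the counting error of FOXM1. Lengths are RefSeq spans, matched by name, and the transcripts of the lists can reach beyond them: 9.59% of coding first-intron intervals in FOXM1, 8.07% in LC3, 8.74% in EBSS evDNA and 9.71% in control evDNA lay outside the RefSeq span of their host. With only hosts that held an interval inside, the median length was 245 kb in FOXM1, 194 kb in LC3, 179 kb in EBSS evDNA and 159 kb in control evDNA. Without this limit, coding hosts of later-intron intervals had medians of 222 kb in FOXM1 and 216 kb in LC3. They were 161 kb in EBSS evDNA and 144 kb in control evDNA, so great length was not particular to first-intron hosts.

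**Figure D3:**
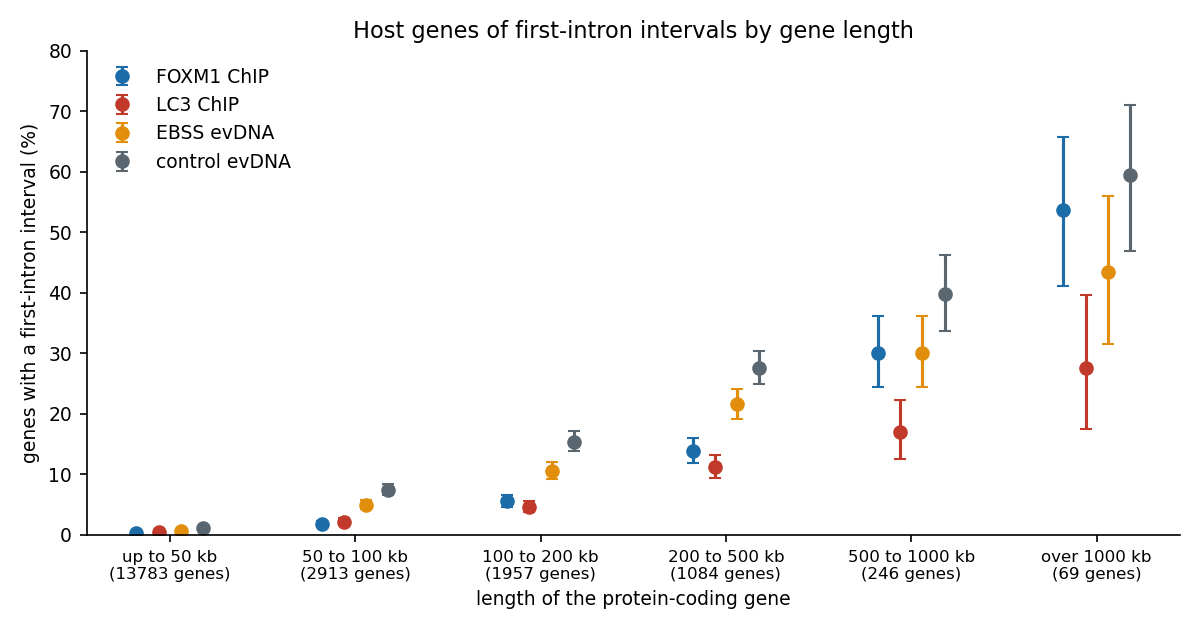
Percent of protein-coding genes with at least 1 first-intron interval (y axis, with 95% counting intervals) by gene length (x axis), for the 4 lists. The share grows with length in every list, and over 1000 kb LC3 is lowest at 27.5%.

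Most hosts held a single interval, and a few long genes held many. Hosts with 1 first-intron interval were 74.7% of FOXM1, 84.1% of LC3, 81.4% of EBSS evDNA and 67.9% of control evDNA hosts. The counts of the leading genes below are compared also in lists of equal length, each cut to its 7801 strongest intervals, which leaves 810 first-intron intervals in FOXM1, 734 in LC3, 771 in EBSS evDNA and 761 in control evDNA.

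NRG1, DPP10, CADM2 and DLG2 held the most FOXM1 intervals. NRG1, a ligand that activates ERBB receptor tyrosine kinases, led with 11 intervals in FOXM1, 2 in LC3, 1 in EBSS evDNA and 2 in control evDNA, or 0.937% (0.469% to 1.67%) of FOXM1 first-intron intervals. At equal list lengths it had 6 in FOXM1, 2 in LC3, 0 in EBSS evDNA and 0 in control evDNA. DPP10, an accessory subunit of voltage-gated potassium channels, had 10 in FOXM1, 1 in LC3, 5 in EBSS evDNA and 7 in control evDNA, and at equal lengths 6 in FOXM1, 1 in LC3, 1 in EBSS evDNA and 1 in control evDNA. CADM2, a synaptic cell adhesion protein, had 9 in FOXM1, 1 in LC3, 3 in EBSS evDNA and 5 in control evDNA, and at equal lengths 7 in FOXM1, 1 in LC3, 0 in EBSS evDNA and 1 in control evDNA. DLG2, a postsynaptic scaffold protein, had 9 in FOXM1, 2 in LC3, 2 in EBSS evDNA and 2 in control evDNA, and at equal lengths 6 in FOXM1, 2 in LC3, 0 in EBSS evDNA and 0 in control evDNA. LRRC4C, a synaptic netrin-G ligand, had 8 in FOXM1, 0 in LC3, 5 in EBSS evDNA and 21 in control evDNA, and at equal lengths 7 in FOXM1, 0 in LC3, 2 in EBSS evDNA and 6 in control evDNA. At equal lengths CADM2 and LRRC4C thus held more FOXM1 intervals than NRG1. Later introns of the whole FOXM1 list held 1 interval in NRG1, 6 in DPP10, 1 in CADM2, 14 in DLG2 and 6 in LRRC4C. In whole lists NRG1, DPP10, CADM2 and DLG2 also held first-intron intervals in each other list. The 11 NRG1 intervals spread over 848 kb of the gene with a median gap of 79.8 kb and folds of 2.41 to 3.85, and none of them overlapped an interval of another list.

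The strongest FOXM1 interval in a coding first intron was a DLG2 interval on chromosome 11, 4.81-fold with 9 fragments and a −log10 q of 2.05 (84714330 to 84714656). STK33, a serine/threonine kinase gene, followed with 4.48-fold and 9 fragments in its only interval, and it held no first-intron interval in LC3, EBSS evDNA or control evDNA. These were the only coding hosts of FOXM1 first-intron intervals past the q threshold. ESRRG, an orphan nuclear receptor, LAMA1, a laminin chain of basement membranes, and LRRC4C each reached 4.33-fold with 8 fragments. The highest FOXM1 fold over all hosts, 4.93 with 10 fragments, was in the long noncoding RNA LINC01726.

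RORA, ASIC2, DLGAP2 and ADARB2 held the most LC3 intervals. RORA, a nuclear receptor of circadian and lipid regulation, had 2 intervals in FOXM1, 8 in LC3, 7 in EBSS evDNA and 2 in control evDNA, and at equal list lengths 2 in FOXM1, 8 in LC3, 3 in EBSS evDNA and 0 in control evDNA. ASIC2, an acid-sensing sodium channel, had 5 in FOXM1, 8 in LC3, 2 in EBSS evDNA and 7 in control evDNA, and at equal lengths 3 in FOXM1, 8 in LC3, 0 in EBSS evDNA and 2 in control evDNA. DLGAP2, a postsynaptic scaffold protein, had 1 in FOXM1, 6 in LC3, 2 in EBSS evDNA and 0 in control evDNA, the same counts as at equal lengths. ADARB2, an RNA-binding protein of the ADAR family, had 2 in FOXM1, 6 in LC3, 0 in EBSS evDNA and 1 in control evDNA, and at equal lengths 2 in FOXM1, 6 in LC3, 0 in EBSS evDNA and 0 in control evDNA. Later introns of the LC3 list held 1 interval in RORA, 0 in ASIC2, 9 in DLGAP2 and 1 in ADARB2. The 8 first-intron RORA intervals of LC3 spanned 432 kb and had folds of 2.27 to 3.25, so their number rather than their strength set RORA apart. DLGAP2 held the strongest coding LC3 interval, 4.57-fold with 12 fragments, followed by PLXDC2, a plexin-domain membrane protein, and MEGF10, an engulfment receptor, with 4.55-fold and 11 fragments each. These 3 genes were the coding hosts of LC3 past the q threshold.

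**Figure D4:**
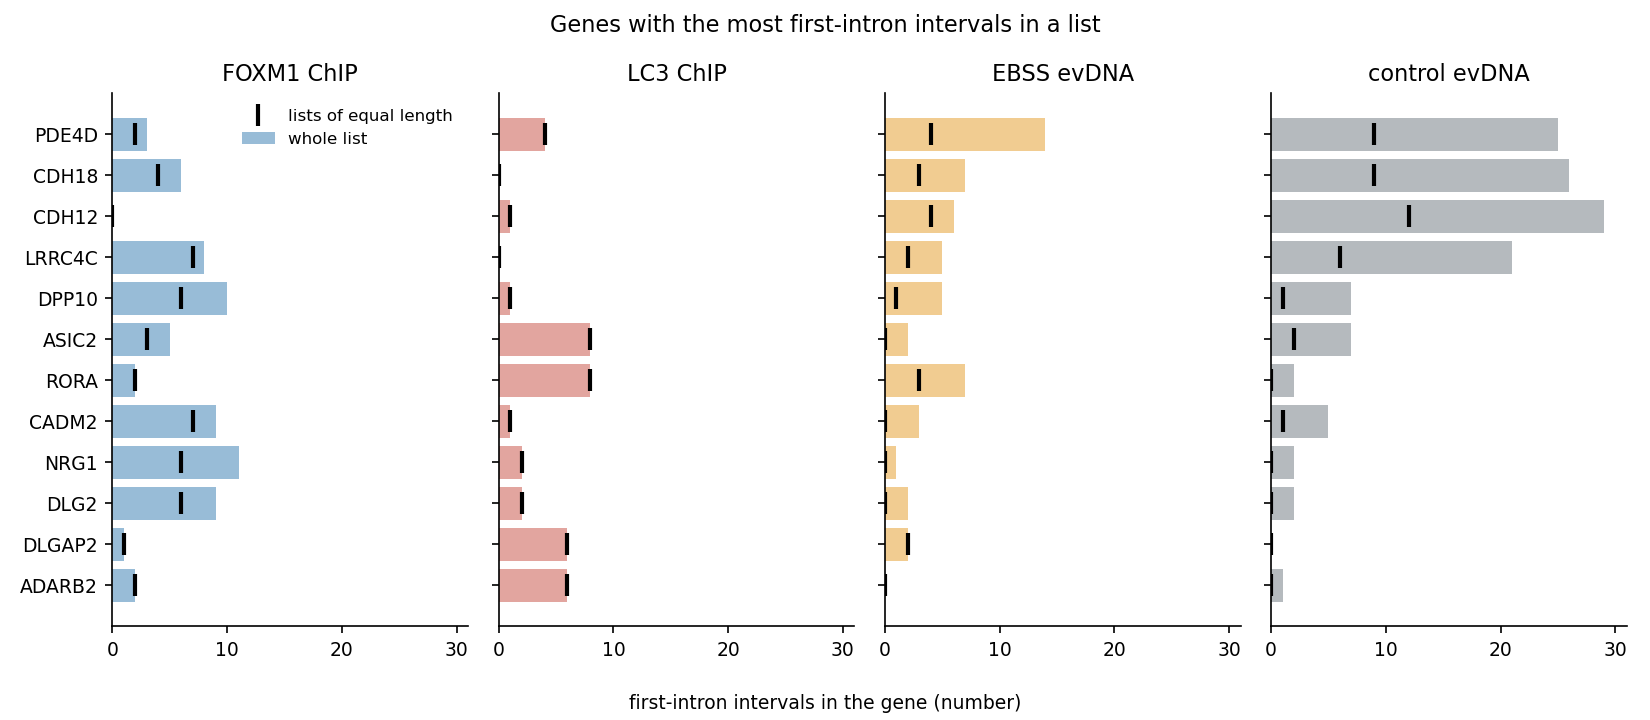
Number of first-intron intervals (x axis) in each gene that is among the 4 leading hosts of a list, 1 panel per list. Bars give whole lists and black marks lists cut to equal length: NRG1 leads in FOXM1 with 11, RORA and ASIC2 in LC3 with 8 each, PDE4D in EBSS evDNA with 14 and CDH12 in control evDNA with 29.

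Among the 4 leading genes of each evDNA list, PDE4D, CDH12 and CDH18 lie on chromosome 5. PDE4D, a phosphodiesterase that degrades cyclic AMP, had 3 intervals in FOXM1, 4 in LC3, 14 in EBSS evDNA and 25 in control evDNA, and 2 in FOXM1, 4 in LC3, 4 in EBSS evDNA and 9 in control evDNA at equal list lengths. CDH12 and CDH18, neighbouring type II cadherins of cell adhesion, had 6 and 7 intervals in EBSS evDNA and 29 and 26 in control evDNA. They had 0 and 6 in FOXM1 and 1 and 0 in LC3. At equal lengths CDH12 had 4 in EBSS evDNA and 12 in control evDNA, and CDH18 had 3 in EBSS evDNA and 9 in control evDNA. CDH18 then had 4 in FOXM1, more than in EBSS evDNA. As shares of first-intron intervals CDH12 was 0.357% (0.131% to 0.776%) in EBSS evDNA and 0.918% (0.615% to 1.32%) in control evDNA, while PDE4D was 0.833% (0.456% to 1.39%) in EBSS evDNA and 0.791% (0.513% to 1.17%) in control evDNA. PDE4D thus held like shares of both whole evDNA lists, though at equal lengths it had 4 in EBSS evDNA and 9 in control evDNA. The counting intervals of CDH12 overlapped, which does not show that its shares were alike. LRRC4C on chromosome 11 was the other leading gene of control evDNA, with the 21 intervals given above. RORA on chromosome 15 was that of EBSS evDNA, with 7 intervals. In later introns PDE4D held 7 intervals in EBSS evDNA and 7 in control evDNA, and LRRC4C 10 and 13. CDH12 and CDH18 held more there than in first introns, with 12 and 31 in EBSS evDNA and 42 and 65 in control evDNA.

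Chromosome 5 as a whole held 11.3% of FOXM1, 9.95% of LC3, 12.7% of EBSS evDNA and 16.2% of control evDNA first-intron intervals. EBSS evDNA differed from control evDNA by -3.50 points (-5.51 to -1.41). At equal list lengths the shares were 11.1% in FOXM1, 9.95% in LC3, 13.5% in EBSS evDNA and 20.6% in control evDNA. The order of the lists was the same outside first introns, where chromosome 5 held 9.32% of later-intron intervals in FOXM1, 8.93% in LC3, 11.5% in EBSS evDNA and 13.4% in control evDNA and 9.66% of all intervals in FOXM1, 8.41% in LC3, 11.6% in EBSS evDNA and 14.97% in control evDNA. First minus later introns was 2.01 points (0.0240 to 4.18) in FOXM1, 1.02 (-1.47 to 3.74) in LC3, 1.24 (-0.574 to 3.16) in EBSS evDNA and 2.79 (1.34 to 4.30) in control evDNA. Chromosome 15, where RORA lies, held 3.07% of FOXM1, 7.22% of LC3, 3.57% of EBSS evDNA and 2.28% of control evDNA first-intron intervals. FOXM1 minus LC3 was -4.15 points (-6.42 to -2.14) there. Of later-intron intervals chromosome 15 held 3.10% in FOXM1, 7.17% in LC3, 2.23% in EBSS evDNA and 2.02% in control evDNA, so LC3 was highest outside first introns too. DNA copy number along the chromosomes of these cells was not measured, so its part in these shares was not tested.

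Some of the strongest evDNA intervals in first introns of named coding genes recurred in both evDNA lists and others did not. COL23A1, a transmembrane collagen, had 5.11-fold with 21 fragments in EBSS evDNA and 4.94-fold with 28 fragments in control evDNA at the same place on chromosome 5 (178585421 to 178585885 in EBSS evDNA and 178585409 to 178585937 in control evDNA). ART1, an ADP-ribosyltransferase, had 4.89-fold with 14 fragments in EBSS evDNA and 5.01-fold with 19 fragments in control evDNA. KMT2C, a histone H3 lysine 4 methyltransferase, had 4.70-fold in EBSS evDNA and 3.50-fold in control evDNA, and OPRL1, the nociceptin receptor, named for its overlap between the lists, had 3.52-fold in EBSS evDNA and 4.21-fold in control evDNA. None of these 4 genes held a first-intron interval in FOXM1 or LC3. SLC27A6, a fatty acid transporter, had 4.89-fold with 13 fragments in EBSS evDNA, and its 1 control evDNA interval, of 3.07-fold, lay elsewhere (128800205 to 128800529 in EBSS evDNA and 128721531 to 128722090 in control evDNA, on chromosome 5). SLC27A6 held more first-intron intervals in FOXM1, with 6, or 5 at equal list lengths, beside 2 in EBSS evDNA and 0 in LC3. LRRTM4, a synaptic adhesion protein, had 4.54-fold in EBSS evDNA and no first-intron interval in control evDNA. Its later introns held 17 intervals in FOXM1, 1 in LC3, 4 in EBSS evDNA and 5 in control evDNA. The first-intron intervals of SLC27A6 and LRRTM4 lie outside the RefSeq spans of these genes. KMT2C has copies elsewhere in the genome and NAIP, an inflammasome sensor with 5.02-fold in control evDNA and no first-intron interval in EBSS evDNA, lies in a duplicated region, so reads of both may be split between copies. GHR, the growth hormone receptor, had 8 intervals in control evDNA with a highest fold of 5.00, and 4 in EBSS evDNA with a highest fold of 2.82.

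First-intron intervals seldom coincided between lists. Of FOXM1 first-intron intervals, 7 (0.596%) overlapped an LC3 interval, 6 (0.511%) an EBSS evDNA interval and 17 (1.45%) a control evDNA interval by at least 1 base. Of LC3 ones, 7 (0.954%) overlapped a FOXM1 interval, 3 (0.409%) an EBSS evDNA interval and 13 (1.77%) a control evDNA interval. Between the evDNA lists 116 EBSS intervals (6.90%, 5.74% to 8.22%) overlapped control intervals, and 115 control intervals (3.64%) overlapped EBSS intervals. Over all intervals the shares were 1.38% for FOXM1 with LC3, 1.37% with EBSS evDNA and 2.05% with control evDNA, 1.88% for LC3 with EBSS evDNA and 3.37% with control evDNA, and 12.1% for EBSS with control evDNA. First introns were below the list as a whole in each pair, and so were later introns, with 0.712% for FOXM1 with LC3. This was thus not particular to first introns. First minus later introns was -1.02 points (-1.80 to -0.101) for LC3 with EBSS evDNA and -1.60 points (-3.03 to -0.0580) for EBSS with control evDNA. As shares of the other list the same pairs gave -0.325 points (-0.614 to 0.0619) for EBSS evDNA with LC3 and -0.498 points (-1.25 to 0.321) for control with EBSS evDNA, intervals that include 0. The other 4 pairs included 0 in either direction. No source used here says whether FOXM1 and LC3 peaks were called against a shared input.

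**Figure D5:**
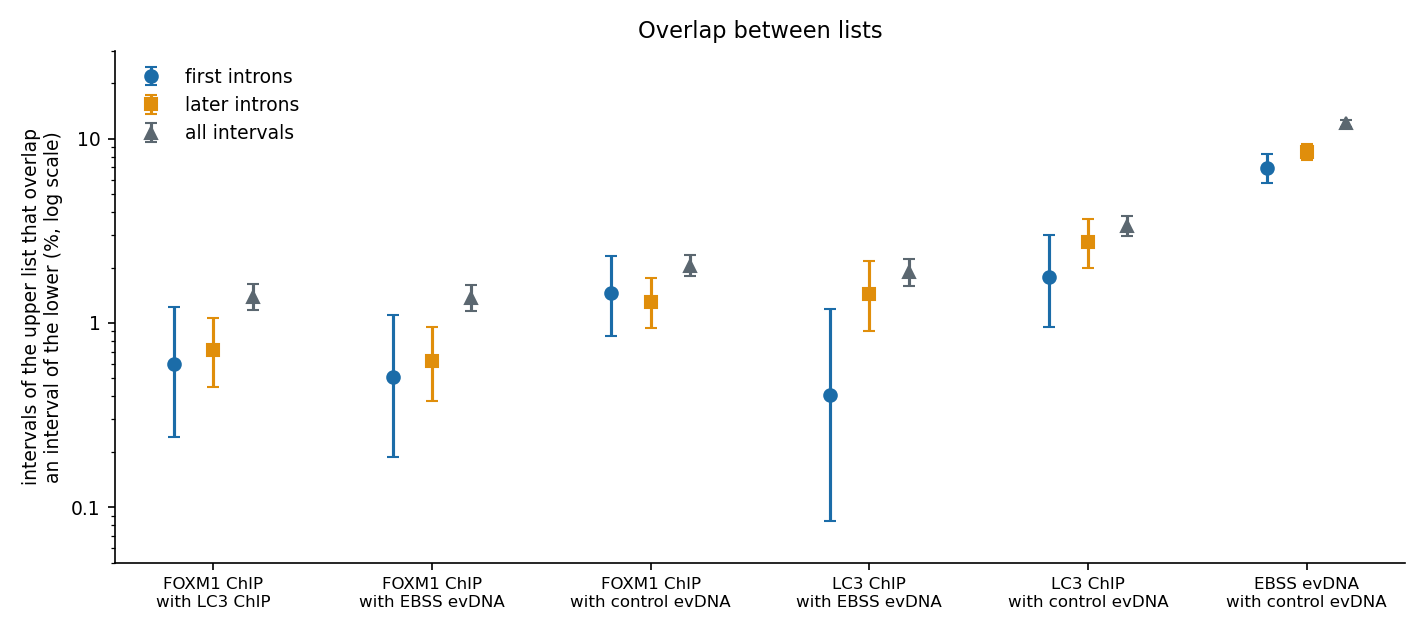
Percent of intervals of the upper list that overlap an interval of the lower list by at least 1 base (y axis, log scale, with 95% counting intervals) for the 6 pairs of lists, in first introns, later introns and over all intervals. First and later introns lie below all intervals in each pair, and EBSS with control evDNA is highest, at 6.90%, 8.51% and 12.1%.

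The FOXM1 and LC3 overlaps in coding first introns fell in 3 genes. EXT1, a polymerase of heparan sulfate, had 3.49-fold with 7 fragments in FOXM1 and 2.79-fold with 7 fragments in LC3. GLCE, an epimerase of the same sugar chain, had 3.40-fold with 7 fragments in FOXM1 and 2.66-fold with 8 fragments in LC3. MAT2B, the regulatory subunit of the enzyme that makes S-adenosylmethionine, had 2.89-fold with 5 fragments in FOXM1 and 3.03-fold with 7 fragments in LC3. None of these reached a q of 0.05. SELENOP, a selenium carrier protein whose intervals lie outside its RefSeq span, held a FOXM1 interval of 3.71-fold that overlapped EBSS evDNA (2.99-fold) and control evDNA (3.35-fold). LC3 overlapped EBSS evDNA in the first introns of ELMO1, a regulator of cell engulfment, and UNC79, a subunit of a sodium leak channel, with 3.41-fold and 4.13-fold in LC3 and 3.69-fold and 2.45-fold in EBSS evDNA.

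The lists shared host genes far more often than places. A host spans many places, and overlapping intervals mostly share a host, so this order is given by construction. How often later-intron hosts were shared is not given here. FOXM1 and LC3 shared 106 coding hosts, 22.3% of FOXM1 hosts and 26.8% of LC3 hosts, and 3 of these had overlapping intervals. FOXM1 shared 168 hosts with EBSS evDNA (35.4% of FOXM1 and 21.3% of EBSS hosts) and 236 with control evDNA (49.7% and 21.4%). LC3 shared 127 with EBSS evDNA (32.2% of LC3 and 16.1% of EBSS hosts) and 154 with control evDNA (39.0% and 13.9%). EBSS and control evDNA shared 363 (45.9% and 32.9%), and 49 of these had overlapping intervals. In shared hosts the nearest intervals of the lists lay apart by a median of 13.01 kb in EBSS with control evDNA, up to 20.6 kb in FOXM1 with LC3.

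Sharing went with gene length. Of 1899 coding hosts, 1271 were in 1 list, 440 in 2, 138 in 3 and 50 in all 4, with median lengths of 110, 203, 321 and 448 kb. Besides PDE4D, ASIC2, RORA and DLG2, the leading genes in all lists were SLC35F4, a nucleotide sugar transporter family member, with 3 intervals in FOXM1, 4 in LC3, 3 in EBSS evDNA and 8 in control evDNA, PPP2R2B, a regulatory subunit of protein phosphatase 2A, with 4 in FOXM1, 2 in LC3, 4 in EBSS evDNA and 4 in control evDNA, and CREB5, a cyclic AMP response element-binding factor, with 3 in FOXM1, 2 in LC3, 2 in EBSS evDNA and 3 in control evDNA. TBC1D5, a Rab GTPase-activating protein of endosome and autophagosome traffic, had 3 in FOXM1, 1 in LC3, 4 in EBSS evDNA and 14 in control evDNA. Of these, 3 in FOXM1, 1 in LC3, 4 in EBSS evDNA and 11 in control evDNA lay outside its RefSeq span, in longer annotated transcripts.

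Of 30 FOXM1 and G2/M cell cycle genes, which include known FOXM1 targets of mitosis, 0 had a first-intron interval in FOXM1, LC3, EBSS evDNA or control evDNA. Their median length was 25.7 kb, close to that of all coding genes, and the background share of genes of up to 50 kb was 0.392% in FOXM1, 0.421% in LC3, 0.718% in EBSS evDNA and 1.07% in control evDNA. A count of 0 among 30 is near that background and is no result about these genes. The genes of the precipitated proteins, FOXM1, MAP1LC3A, MAP1LC3B and MAP1LC3C, also held 0 in each list. Of 34 autophagy genes, 0 in FOXM1, 0 in LC3, 3 in EBSS evDNA and 0 in control evDNA did: the 3 in EBSS evDNA were ATG14 and UVRAG, subunits of class III phosphatidylinositol 3-kinase complexes, with 2.58-fold and 2.50-fold, and AMBRA1, a scaffold of autophagy initiation, with 2.77-fold. These are 8.82% of the list, beside 3.94% of all coding genes in EBSS evDNA, and each rests on 1 interval with 8 to 11 fragments that did not pass the q threshold. At equal list lengths AMBRA1 kept its interval, and ATG14 and UVRAG held 0 in EBSS evDNA. Later introns of UVRAG held 3 intervals in FOXM1, 0 in LC3, 4 in EBSS evDNA and 5 in control evDNA. Those of AMBRA1 held 1 in control evDNA. UVRAG spans 329 kb and AMBRA1 198 kb. Of all genes of 200 to 500 kb 21.6% hosted an EBSS evDNA interval, and of those of 100 to 200 kb 10.6%.

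The gene lists made of long genes had the highest counts. Of 22 long genes at common fragile sites, with a median length of 1470 kb, 9 hosted an interval in FOXM1, 4 in LC3, 11 in EBSS evDNA and 13 in control evDNA. LRP1B, a lipoprotein receptor family member, and CDH13, an atypical cadherin, did so in every list, as did DLG2. Of 28 neuronal adhesion and synapse genes, with a median of 1115 kb, 16 in FOXM1, 6 in LC3, 13 in EBSS evDNA and 21 in control evDNA did, CADM2, DPP6 and DPP10 in every list. These shares lie beside the 53.6% of all genes over 1000 kb that hosted an interval in FOXM1, 27.5% in LC3, 43.5% in EBSS evDNA and 59.4% in control evDNA, given above. Of 17 cyclic nucleotide phosphodiesterase genes, 5 in FOXM1, 3 in LC3, 3 in EBSS evDNA and 7 in control evDNA did, with 8 intervals in FOXM1, 6 in LC3, 17 in EBSS evDNA and 43 in control evDNA, of which PDE4D held 3 in FOXM1, 4 in LC3, 14 in EBSS evDNA and 25 in control evDNA. Their median length was 320 kb, and of all genes of 200 to 500 kb 13.8% in FOXM1, 11.2% in LC3, 21.6% in EBSS evDNA and 27.6% in control evDNA hosted an interval. PDE1C, a calmodulin-dependent member, hosted 1 interval in each of FOXM1, LC3 and EBSS evDNA and 2 in control evDNA.

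Of 31 receptor tyrosine kinase and RAS pathway genes, 5 in FOXM1, 3 in LC3, 5 in EBSS evDNA and 5 in control evDNA hosted an interval, or 16.1% in FOXM1, 9.68% in LC3, 16.1% in EBSS evDNA and 16.1% in control evDNA. Their median length was 124 kb, and of all genes of 100 to 200 kb 5.57% in FOXM1, 4.65% in LC3, 10.6% in EBSS evDNA and 15.4% in control evDNA hosted an interval. Those in FOXM1 were the ligands NRG1 and NRG3, their receptor ERBB4, the receptor ALK and the kinase BRAF. ERBB4 had 5 intervals in FOXM1, 1 in LC3, 2 in EBSS evDNA and 0 in control evDNA and NRG3 had 6 in FOXM1, 0 in LC3, 2 in EBSS evDNA and 4 in control evDNA. NRG1, NRG3 and ERBB4 are each longer than 1000 kb. The ligand gene NRG2, which is not in the list, had 1 in FOXM1, 2 in LC3, 1 in EBSS evDNA and 2 in control evDNA, and the receptor gene EGFR was a host in LC3 and not in FOXM1. At equal lengths ERBB4 had 4 in FOXM1, 1 in LC3, 2 in EBSS evDNA and 0 in control evDNA, and NRG3 had 4 in FOXM1, 0 in LC3, 1 in EBSS evDNA and 2 in control evDNA.

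The other gene lists had counts of 0 to 4, read beside the 2.37% of all coding genes that hosted an interval in FOXM1, 1.97% in LC3, 3.94% in EBSS evDNA and 5.51% in control evDNA. Of 26 vesicle biogenesis genes, 0 in FOXM1, 2 in LC3, 0 in EBSS evDNA and 2 in control evDNA hosted an interval, or 0% in FOXM1, 7.69% in LC3, 0% in EBSS evDNA and 7.69% in control evDNA. LC3's were RAB27A, a GTPase of exosome secretion, with 1 interval of 2.37-fold, and SMPD3, the neutral sphingomyelinase of exosome budding, with 3 intervals up to 3.23-fold. In control evDNA they were SMPD3, with 1 interval of 2.38-fold, and RALA, a RAS-like GTPase, with 2 intervals. Of 22 amino acid starvation and mTOR genes, 0 in FOXM1, 2 in LC3, 1 in EBSS evDNA and 3 in control evDNA did, or 0% in FOXM1, 9.09% in LC3, 4.55% in EBSS evDNA and 13.6% in control evDNA. RPTOR, the mTORC1 subunit raptor, had 2 LC3 intervals up to 3.05-fold, and MITF, a lysosome-linked transcription factor, had 0 intervals in FOXM1, 1 in LC3, 2 in EBSS evDNA and 4 in control evDNA. Later introns of RPTOR held 0 intervals in FOXM1, 0 in LC3, 2 in EBSS evDNA and 2 in control evDNA. RPTOR spans 422 kb, MITF 229 kb, RAB27A 116 kb and SMPD3 90.2 kb. LC3 intervals were hosted by 11.2% of all genes of 200 to 500 kb. The share was 4.65% at 100 to 200 kb and 2.20% at 50 to 100 kb. Of 26 actin, adhesion and mesenchymal genes, 0 in FOXM1, 4 in LC3, 2 in EBSS evDNA and 4 in control evDNA did, or 0% in FOXM1, 15.4% in LC3, 7.69% in EBSS evDNA and 15.4% in control evDNA. Their median length was 106 kb, and the shares of all genes of 100 to 200 kb are given above. Of 22 lung epithelial genes 1 did, the surfactant protein gene SFTPD in control evDNA with 3.13-fold. FOXM1 had 0 members in the autophagy, vesicle, starvation, actin and lung lists. These lists have 22 to 34 members each, and 2.37% of all coding genes hosted a FOXM1 interval. Counts of 0 are near that background and are no result about these genes. Over all 10 lists 35 of 258 members in FOXM1, 24 in LC3, 38 in EBSS evDNA and 56 in control evDNA hosted a first-intron interval.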

How the data were processed

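The submitters' processing notes name the build hg38 and the tools ChIPseeker, MACS3 3.0.0a6, BWA, FastQC 0.11.8 and fastp 0.20.0. Per the file headers, each of the 4 lists holds narrow peaks of 1 library with a transcript annotation. The authors deposited a fold over the local background for each peak, a linear ratio. They also deposited −log10 p-values and −log10 q-values, whose headings are damaged in the EBSS evDNA list, and a score that was not used. The lists extend to a p-value of 0.005. No source used here states which control the peaks were called against.

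Intervals with several summits kept the strongest. Summit fragments and background were solved from fold and Poisson −log10 p, and 100% of first-intron intervals matched within 0.01; the method was tested on simulated data. Coordinates are 1-based. The host is the gene in the annotation, named through ID and name pairs in the lists (2838 of 3257 hosts). Protein-coding genes and lengths are from RefSeq, matched by symbol or synonym, and hosts whose name had no single match were not counted as coding. Shares have Clopper-Pearson 95% intervals and their differences Newcombe ones, in Python 3.11.15 with scipy 1.17.1. A library with fewer fragments yields fewer weak peaks, so list lengths depend on depth.

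Genes were named by a rule: per list the 6 coding hosts of highest fold and the 4 with most intervals, per pair of lists the 4 best-ranked overlapping hosts, up to 10 hosts in all 4 lists, up to 4 members of each of 10 gene lists, and the genes of FOXM1 and LC3. EFNA5, VRK2, NRG2, EGFR, ALK and noncoding hosts were named outside it, after their values were seen. The members and the gene lists were chosen with earlier results of these data known.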

Additional observations from a re-analysis of the deposited data

How the results depend on the processing

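Of 250 recomputed values of 42 results, 173 stayed within the counting interval of a share or median, within 1.5 times of a count, or on the same side of 0 or with an interval that still includes 0 for a difference. In 2 of these, both FOXM1 minus control evDNA, the sign differed: 6.81 points at q of at most 0.05 and 0.244 at equal list lengths, with intervals that include 0, as that of the whole lists does. Without high-background peaks, on chromosomes 1 to 22 and X, with rows not merged, with the gene of the nearest TSS as host, and with only hosts that hold the nearest TSS, each value recomputed stayed so. No paired analysis was possible because each group is 1 library and the result comes from no test. The number of intervals per length of first intron was not run, since intron lengths were not used here. Depth is unknown, and most intervals rest on few fragments.

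Keeping q of at most 0.05 leaves 30 intronic intervals in FOXM1 and 30 in LC3. The first-intron share among intronic intervals was then 33.3% in FOXM1, 20% in LC3 and 26.5% in control evDNA, and 5 differences changed sign. Besides FOXM1 minus control evDNA, FOXM1 minus LC3 was 13.3 points, FOXM1 minus EBSS evDNA 5.36, LC3 minus EBSS evDNA -7.98 and LC3 minus control evDNA -6.52, each with an interval that includes 0. The share among all intervals was 4.52% in FOXM1, 2.03% in LC3, 6.25% in EBSS evDNA and 8.70% in control evDNA, and the median distance 7.52 kb in FOXM1, 23.2 kb in LC3, 9.76 kb in EBSS evDNA and 12.98 kb in control evDNA. Coding hosts numbered 2 in FOXM1, 3 in LC3, 51 in EBSS evDNA and 159 in control evDNA. Shared hosts were 0 in each pair except 5 between EBSS and control evDNA. Overlaps were 0 for FOXM1 with LC3, 1 with EBSS evDNA and 1 with control evDNA, 0 for LC3 with EBSS evDNA, 0 with control evDNA, and 12 for EBSS with control evDNA. Hosting members of gene lists were 1 in FOXM1, 0 in LC3, 3 in EBSS evDNA and 10 in control evDNA. The share past a −log10 q of 5 was 0.170% in FOXM1, 0% in LC3, 0.357% in EBSS evDNA and 0.253% in control evDNA.

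At equal list lengths the share among intronic intervals was 26.5% in control evDNA, FOXM1 minus EBSS evDNA was -0.933 points, and the share among all intervals was 9.88% in EBSS evDNA and 9.76% in control evDNA. The median distance in control evDNA was 13.8 kb, and coding hosts numbered 394 in EBSS evDNA and 335 in control evDNA. Shared hosts were 71 for FOXM1 with EBSS evDNA, 72 with control evDNA, 76 for LC3 with EBSS evDNA, 51 with control evDNA and 83 for EBSS with control evDNA. Overlaps were 4 for FOXM1 with LC3, 5 for FOXM1 and 5 for LC3 with control evDNA, and 43 for EBSS with control evDNA. Cutting a list keeps its strongest intervals, so length and peak strength change together, and their parts in the smaller counts were not tested.

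Without single-intron transcripts the share among intronic intervals was 24.3% in FOXM1, 29.5% in LC3, 25.6% in EBSS evDNA and 24.7% in control evDNA, and FOXM1 minus EBSS evDNA was -1.34 points. With protein-coding hosts it was 24.7% in FOXM1, 26.1% in EBSS evDNA and 25.2% in control evDNA, and FOXM1 minus EBSS evDNA was -1.35 points. With each host gene once it was 31.7% in FOXM1, 35.5% in LC3, 34.1% in EBSS evDNA and 34.1% in control evDNA, FOXM1 minus control evDNA was -2.35 points, past 0, and LC3 minus EBSS evDNA and minus control evDNA were 1.45 and 1.46 points, no longer past 0. Without chromosome 5, EBSS minus control evDNA was 1.64 points, past 0, and overlaps were 8 for LC3 with control evDNA and 74 for EBSS with control evDNA. With an overlap of at least 50% of the shorter interval, counts were 3 for FOXM1 with LC3, 10 for FOXM1 with control evDNA and 8 for LC3 with control evDNA. Beyond these constructions the cause was not tested.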
